A study of Mus musculus with 24 samples.

Results

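The odorant receptor (OR) genes Olfr830 to Olfr984 lie on mouse chromosome 9 in a pair of separate groups, together called the cluster here. They were chosen by symbol alone, every Olfr number in that range with or without the pseudogene suffix -ps, which gave 107 of the 1175 Olfr genes and of the 45706 genes in the count table. Bulk RNAseq had been made from the main olfactory epithelium (OE), both nares together, of untreated WT and iRhom2-/- mice aged 5, 8, 10 and 30 weeks, with 3 mice per age and genotype. All mice were labelled male except WT replicate 3 of 8 weeks and replicate 3 of each genotype at 10 weeks, labelled female. Sex was thus not balanced between the genotypes at 8 weeks. The iRhom2-/- mice carried the allele Rhbdf2 tm1b(KOMP)Wtsi, which places LacZ under the gene's own promoter, and the WT mice did not carry it. The strain of all mice was labelled as mixed, the iRhom2-/- line being of 129Sv and C57BL/6 origin, and the part of strain differences between single mice was not tested. The libraries of 8 and 10 weeks carried the names of single mice. The other 12 columns gave the genotype only, so the mice of 5 and 30 weeks are described together as 1 set of 6 WT and 6 iRhom2-/- libraries, called 5 or 30 weeks. Each set carried 1 core reference number in its labels, and between sets age and core reference cannot be told apart.

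ORs are G protein-coupled receptors on the cilia of olfactory sensory neurons (OSNs). A mature OSN expresses a single OR gene out of the whole repertoire, from 1 allele, and the receptor then signals through the olfactory G protein, adenylyl cyclase 3 and a cyclic nucleotide-gated channel. OR genes lie in large clusters, and most neurons that choose a given gene sit within 1 zone of the epithelium, from dorsal to ventral. The ORs of chromosome 9 are class II receptors, the larger class of land vertebrates. In a bulk sample the RNA of 1 OR reflects how many neurons chose it and how much RNA each of them holds, and these cannot be told apart here.

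All 107 genes were placed on chromosome 9 of GRCm38 by the GENCODE annotation, in a pair of physical groups separated by more than 1 Mb. The proximal group held 30 genes from Olfr830 to Olfr873 (chr9:18874693-20303599). The distal group held 77 genes from Olfr874 to Olfr984 (chr9:37745106-40114206). Within these spans the count table held 3 other Olfr genes in the proximal and 15 in the distal group, left out by the choice by symbol. Order and neighbours below are among members alone. The annotation gave 103 of them as protein coding, 2 as polymorphic pseudogenes and 2 as unprocessed pseudogenes, and 69 lay on the plus strand. Of the 107, 105 had a MOR subfamily name, which groups ORs by sequence, and these fell into 26 subfamilies. The largest were MOR171 with 26 members, MOR162 with 10 and MOR224 with 8. An exact stretch of 100 exonic bases was shared with another gene by 46 of the 107, but only 4 shared over 10% of their stretches. Olfr910 was 1 of these, with 11.1% of its stretches shared, mostly with Olfr912. The others were Olfr951 (12.8%, most of all with Olfr954), Olfr955 (17.4%, with Olfr952) and Olfr952 (28.8%, with Olfr955). The counts of these receptors are less certain than those of most members.

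Coding sequences are shown for 2 pairs of related genes, to show how far reads can tell them apart. The first pair holds the receptors called between genotypes, and the second holds receptors with the smallest p over all mice that passed in no comparison. Olfr888 (chr9:38108128-38111381) and Olfr901 (chr9:38429455-38432682) are both MOR162 receptors of the plus strand, and their coding sequences of 942 and 933 bases were 82.8% identical. A stretch of 150 coding bases of each is given in GRCm38, from coding base 35 of Olfr888 (chr9:38108722-38108871) and coding base 23 of Olfr901 (chr9:38430306-38430455), with the 14 differing bases in capitals.
Olfr888: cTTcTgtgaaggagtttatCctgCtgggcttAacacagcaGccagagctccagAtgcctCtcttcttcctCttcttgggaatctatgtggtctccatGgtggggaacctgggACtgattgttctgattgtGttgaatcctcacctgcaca
Olfr901: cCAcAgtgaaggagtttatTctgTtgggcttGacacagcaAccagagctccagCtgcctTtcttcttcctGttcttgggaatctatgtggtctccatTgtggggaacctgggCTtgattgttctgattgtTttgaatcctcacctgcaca
Neither gene shared an exact stretch of 100 bases with any other gene. Olfr910 (chr9:38537849-38540820) and Olfr913 (chr9:38592759-38596283) are adjacent members of MOR165, also on the plus strand, with coding sequences of 930 and 936 bases that were 80.3% identical. Their first 150 coding bases (chr9:38538897-38539046 and chr9:38594223-38594372) differed at 42 positions, again in capitals.
Olfr910: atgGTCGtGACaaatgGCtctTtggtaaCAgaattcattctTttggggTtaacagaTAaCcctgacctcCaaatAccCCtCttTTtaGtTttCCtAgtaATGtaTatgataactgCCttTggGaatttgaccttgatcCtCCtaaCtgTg
Olfr913: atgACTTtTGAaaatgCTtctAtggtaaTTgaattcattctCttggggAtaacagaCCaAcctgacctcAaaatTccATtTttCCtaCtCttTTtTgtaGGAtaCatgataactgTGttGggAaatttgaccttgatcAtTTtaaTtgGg
Across the pairs, Olfr888 with Olfr910 and Olfr901 with Olfr913, identity was lower, at 68.5% and 67.5%.

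The 24 libraries held between 25333822 and 48660394 counts, and OR genes took 0.126% to 0.209% of them. Rhbdf2, the gene of iRhom2, was lower in iRhom2-/- mice by 1.08 ± 0.09 on the log2 scale (SE, adjusted p = 9.78e-08, edgeR's quasi-likelihood test), with 220 to 637 counts in iRhom2-/- libraries and 556 to 1034 in WT libraries. The mature OSN markers, among them Omp, Cnga2 and Adcy3, were above 0 in every library. In 2 libraries a single gene took a large share of all counts, 13.6% in iRhom2-/- replicate 2 of 10 weeks and 5.53% in WT replicate 1 of 8 weeks. No batch smaller than that of the core reference number was given.

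The cluster was expressed at low levels throughout. Its 107 genes held 70408 counts over the 24 libraries, and 22 of them held 50% of these. In all, 72 members were detected in every library and 2, Olfr831-ps1 and Olfr891, in none. The filter on low counts left 87 members for testing, 19 of the 30 proximal and 68 of the 77 distal genes. The 20 others had mean levels of at most 0.138 counts-per-million (CPM, of the library total scaled by TMM), the highest being that of Olfr890. Olfr830, at the proximal end, was among them, with counts in 9 of 24 libraries, while Olfr873, Olfr874 and Olfr984 at the other ends of the groups were detected in all 24.

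Per kb of exon, Olfr969, a MOR171 receptor of the distal group, had the highest mean level, 4.18 CPM per kb. It was followed by Olfr915 with 2.28, Olfr972 with 1.51, Olfr957 with 1.18 and Olfr965 with 1.07 CPM per kb, all of the distal group. The median of the 87 tested members was 0.209 CPM per kb, and the groups had like medians, 0.178 proximal and 0.210 distal. Olfr969 alone ranged from 3.16 to 13.3 CPM between libraries. Its WT libraries held 6.38, 7.91 and 9.04 CPM at 8 weeks and 9.76, 11.6 and 8.28 CPM at 10 weeks, and its iRhom2-/- libraries 4.19, 13.3 and 7.13 CPM at 8 weeks and 6.25, 7.01 and 4.99 CPM at 10 weeks. The genotypes overlapped at 8 weeks, and at 10 weeks all 3 iRhom2-/- libraries were below the WT libraries. Over all 24 mice its log2 fold change was -0.25 ± 0.18 (SE, adjusted p = 0.624), which did not pass the test. Within a group of mice, the SD of log2 CPM had a median of 0.61 over the tested members, close to the 0.57 of the other 865 tested ORs. It was lowest for Olfr913 (0.31) and highest for Olfr951 (1.04).

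**Figure D1:**
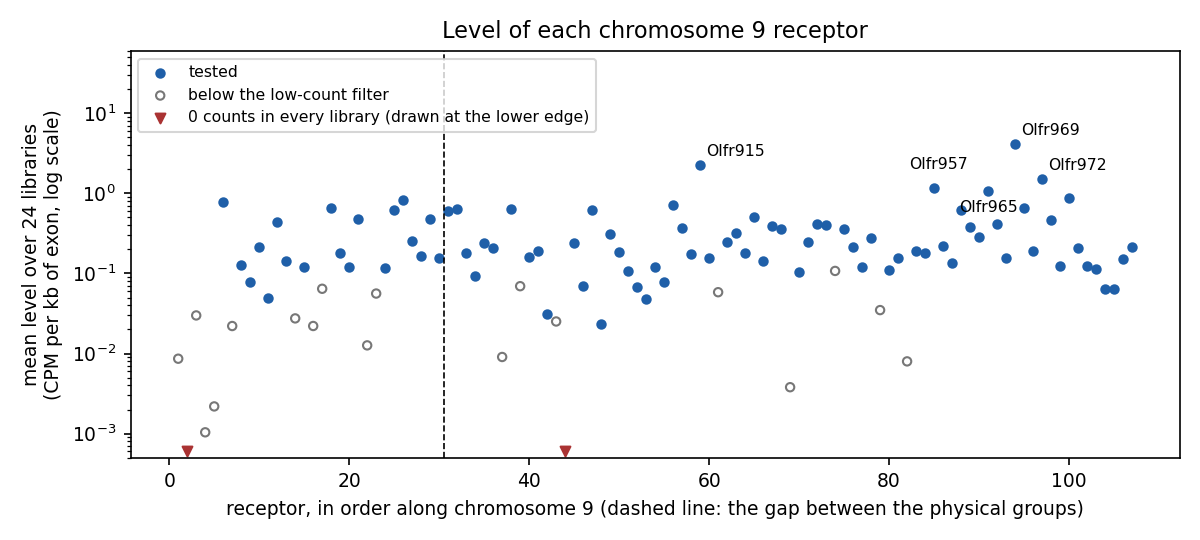
Mean level of each of the 107 receptors over 24 libraries (CPM per kb of exon, log axis) in their order along chromosome 9. Tested receptors are filled, those under the low-count filter are open, and the 2 receptors with no counts are triangles at the lower edge; the 5 highest, led by Olfr969 at 4.18 CPM per kb, all lie to the right of the dashed line, in the distal group.

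The first comparison asked which ORs differed between iRhom2-/- and WT OE at 8 weeks. Of the 87 tested members, 1 was higher and 1 was lower at an adjusted p under 0.05, beside 0.506% of all 20763 genes tested (0.294% higher and 0.212% lower) and 5 of all 952 ORs tested. Olfr901 was higher in iRhom2-/- mice. Its CPM was 0.327, 0.228 and 0.341 in the WT libraries and 0.975, 1.10 and 1.43 in the iRhom2-/- libraries, from 10 to 15 and from 47 to 63 counts. The lowest iRhom2-/- library was thus well above the highest WT library, and the log2 fold change was 1.96 ± 0.37 (SE, n = 3 per genotype, adjusted p = 0.0204, edgeR's quasi-likelihood test). Olfr888 went the other way. Its counts were 11, 44 and 35 in the WT libraries, or 0.240, 1.00 and 0.853 CPM, and 0, 1 and 0 in the iRhom2-/- libraries. A count of 0 there allows up to 3 counts, or 0.0683 CPM in the shallowest of these libraries. Pooled, 90 WT counts against 1 iRhom2-/- count gave a 96.0-fold ratio with an exact Poisson 95% interval from 16.8 to 3834, which covers counting error only. The fitted log2 fold change was -6.02 ± 1.26 (SE, adjusted p = 0.0325) and depends on the prior count of the fit.

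The calls were sensitive to single libraries. Without any 1 of the 6 libraries, the adjusted p of Olfr888 lay between 0.0504 and 0.192. That of Olfr901 stayed under 0.05 without WT replicate 3 (0.0418) or iRhom2-/- replicate 1 (0.0321), and lay between 0.0640 and 0.139 without WT replicates 1 or 2 or iRhom2-/- replicates 2 or 3. The directions did not turn in any of these fits.

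The rest of the cluster at 8 weeks was mostly on the higher side in iRhom2-/- mice, as were ORs elsewhere. The log2 fold change was above 0 for 62 of 87 members (71.3%, beside 52.1% of all genes) with a median of 0.33, and for 639 of the 865 other ORs (73.9%) with a median of 0.37, while the median over all genes was 0.01. At an unadjusted p under 0.05, 9 members were higher and 2 lower, beside 14.5% of all genes (7.87% higher and 6.68% lower). The genotypes did not overlap for 13 members that were higher and 5 that were lower, beside 25.7% of all genes tested (15.3% higher and 10.4% lower) and 17.4% of all ORs. Mature OSN markers moved the same way: all 10 had a log2 fold change above 0, 8 of them at an unadjusted p under 0.05 and 0 after adjustment, and their summed level was 9508 to 11904 CPM in WT and 14064 to 17898 CPM in iRhom2-/- libraries. ORs together took 0.204% ± 0.004 (SD, n = 3) of all counts in iRhom2-/- mice and 0.161% ± 0.030 (SD, n = 3) in WT mice. The part of the OSN markers in the receptor values was not tested. With the counts of all ORs as the library size, Olfr901 and Olfr888 stayed under an adjusted p of 0.05. That is a change of scaling and does not test the part of the OSN markers.

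At 10 weeks no member passed the test, beside 0.0963% of all genes, and the cluster as a whole lay on the lower side. At an unadjusted p under 0.05, 11 members were lower and 0 higher, beside 7.71% of all genes (4.1% lower and 3.6% higher); DESeq2 called 0 and edgeR's likelihood ratio test 1, Olfr894. The log2 fold change was above 0 for 10 of 87 members, beside 51.2% of all genes, and below 0 for 77, with a median of -0.60. Among the other ORs it was below 0 for 619 of 865, with a median of -0.33, and over all genes the median was 0.01. The genotypes did not overlap for 27 members, all lower in iRhom2-/- mice, beside 12.9% of all genes (6.39% lower and 6.55% higher) and 25.2% of all ORs in either direction. Some marker sums stood apart in these libraries, although no gene of their lists passed the test. Summed immature OSN markers held 1231 to 1406 CPM in WT and 1419 to 1647 CPM in iRhom2-/- mice, globose basal cell markers 66.2 to 81.2 and 89.8 to 107 CPM, and horizontal basal cell markers 113 to 123 and 148 to 162 CPM. None of these sums overlapped between genotypes, 2 of their 16 genes had an unadjusted p under 0.05 and 0 passed after adjustment, and 9 of 10 mature OSN markers had a log2 fold change below 0 with sums that overlapped. Their part in the receptor values was not tested. Olfr894, a MOR170 receptor, had the smallest p. It held 0.353, 0.349 and 0.807 CPM in WT and 0.150, 0.0371 and 0.0310 CPM in iRhom2-/- libraries, and its log2 fold change was -2.71 ± 0.66 (SE, adjusted p = 0.128). All iRhom2-/- libraries were below the WT libraries, and iRhom2-/- replicates 2 and 3 held 1 count each. Without iRhom2-/- replicate 1 of 10 weeks 1 member passed, Olfr835, which was named after its values were seen. The smallest p on the higher side was that of Olfr913, with 0.418, 0.571 and 0.299 CPM in WT and 0.748, 0.667 and 0.527 CPM in iRhom2-/- libraries. Its groups overlapped, and the log2 fold change was 0.59 ± 0.33 (SE, adjusted p = 0.718).

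Among the 12 libraries of 5 or 30 weeks, no member passed the test, beside 0.376% of all genes. The ages could not be separated here, so fold changes are averages over 5 and 30 weeks. Opposite shifts at the separate ages would not be seen in them. The spread within each genotype also includes any differences between ages, so the absence of calls does not show that no member differed. At an unadjusted p under 0.05, 5 members were higher and 1 lower, beside 13.1% of all genes (6.32% higher and 6.82% lower); DESeq2 and the likelihood ratio test called 0. The log2 fold change was above 0 for 47 of 87 members, beside 47.7% of all genes, with a median of 0.09, the same as the median of the other ORs. The genotypes overlapped for every tested member, beside 1.53% of all genes without overlap. Olfr901 again had the smallest p of those higher. Its WT libraries ran from 0.554 to 1.11 CPM with a median of 0.653, and its iRhom2-/- libraries from 0.908 to 1.72 CPM with a median of 0.993. The ranges overlapped through 1 WT library, and the log2 fold change was 0.62 ± 0.25 (SE, n = 6 per genotype, adjusted p = 0.301). Olfr895, the neighbour of Olfr894, had the smallest p of those lower, with 0.623 to 1.71 CPM (median 1.15) in WT and 0.345 to 1.02 CPM (median 0.796) in iRhom2-/- libraries. Its log2 fold change was -0.65 ± 0.27 (SE, adjusted p = 0.309). Olfr888 held 0.475 to 0.919 CPM (median 0.788) in WT libraries and 0 to 1.51 CPM (median 0.240) in iRhom2-/- libraries, so the near absence seen at 8 weeks did not hold here: 5 of 6 iRhom2-/- libraries had counts. At 10 weeks it held 0.739, 1.17 and 0.449 CPM in WT and 0.628, 0.853 and 0.248 CPM in iRhom2-/- libraries.

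**Figure D2:**
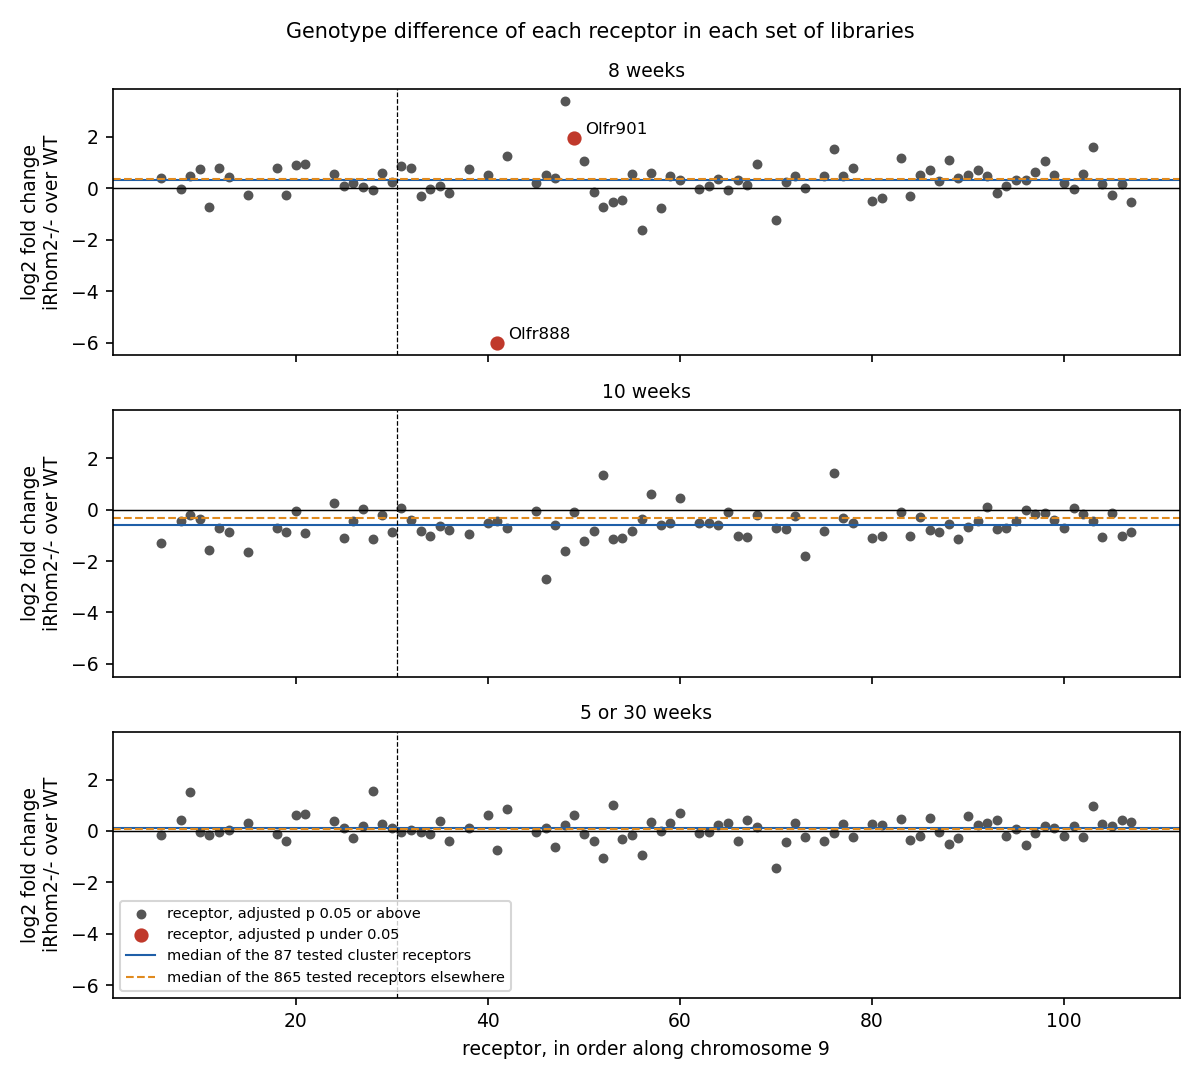
Log2 fold change of each tested receptor (iRhom2-/- over WT) in its order along chromosome 9, in 1 panel per set. Red points are the calls at an adjusted p under 0.05, Olfr901 and Olfr888 at 8 weeks; the solid line is the median of the cluster (0.33, -0.60 and 0.09 from top to bottom) and the broken line that of the other 865 tested receptors (0.37, -0.33 and 0.09).

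Over all 24 mice, compared within sets, no member passed the test, beside 1.13% of all genes and 14 of all 952 ORs. At an unadjusted p under 0.05, 4 members were higher and 3 lower, beside 12.4% of all genes (6.26% higher and 6.13% lower); DESeq2 called 1, Olfr901 (adjusted p = 0.0414), which also passed without iRhom2-/- replicate 2 of 10 weeks (adjusted p = 0.0321). The log2 fold change was above 0 for 40 of 87 members, beside 49.7% of all genes, with a median of -0.01, and for 485 of 865 other ORs, with a median of 0.05. Of the 5 receptors with the smallest p on the higher side, Olfr901 differed by 0.77 ± 0.23 (SE, adjusted p = 0.126) and Olfr913 by 0.47 ± 0.15 (adjusted p = 0.159), and each was above the WT mean of its set in 11 of 12 iRhom2-/- mice. The others were Olfr859 (0.52 ± 0.21, adjusted p = 0.295), Olfr980 (0.81 ± 0.36, adjusted p = 0.346) and Olfr867 (0.41 ± 0.20, adjusted p = 0.424).

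On the lower side the smallest p was that of Olfr910, with a log2 fold change of -0.95 ± 0.34 (SE, adjusted p = 0.221). Only 1 of 12 iRhom2-/- mice was above the WT mean of its set. At 8 weeks Olfr910 held 2.48, 0.912 and 1.85 CPM in WT and 0.622, 0.633 and 0.455 CPM in iRhom2-/- libraries, without overlap, whereas at 10 weeks it held 1.38, 1.30 and 3.02 against 2.15, 1.78 and 0.496 CPM, with overlap. Its neighbour Olfr913 held 0.806, 0.479 and 0.804 CPM in WT and 1.20, 0.928 and 1.00 CPM in iRhom2-/- libraries at 8 weeks, again without overlap and on the higher side. Next came Olfr888 (-1.38 ± 0.58, adjusted p = 0.318), Olfr930 (-1.24 ± 0.55, adjusted p = 0.352), Olfr955 (-0.50 ± 0.26, adjusted p = 0.472) and Olfr846 (-0.60 ± 0.32, adjusted p = 0.479).

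**Figure D3:**
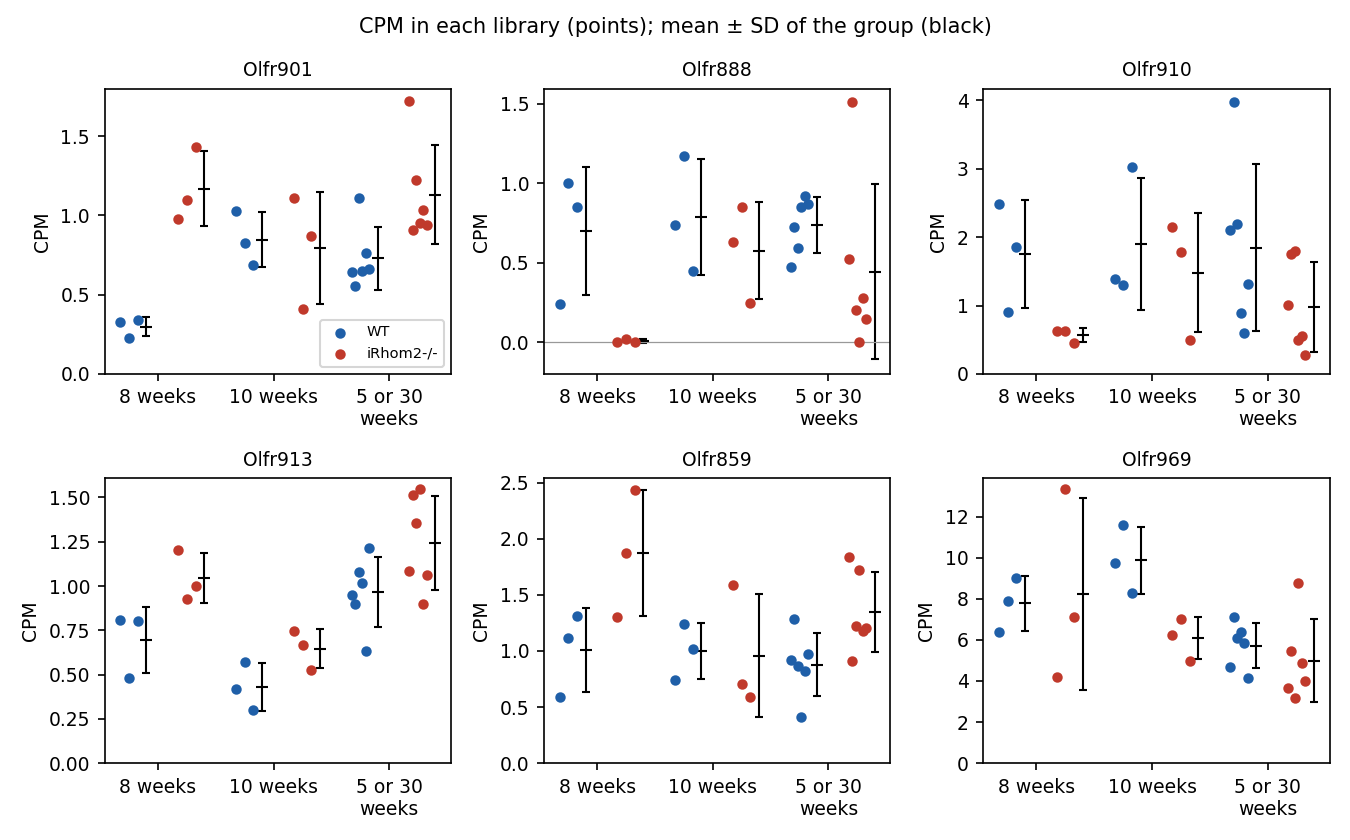
CPM of 6 receptors in each of the 24 libraries (points; WT blue, iRhom2-/- red), with the mean ± SD of each group in black. Olfr901 is higher and Olfr888 near 0 in the 3 iRhom2-/- libraries of 8 weeks, while the genotypes of both overlap at 10 weeks and at 5 or 30 weeks; Olfr969, the most abundant, varies from 3.16 to 13.3 CPM.

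The sets were then compared with each other, by testing whether the genotype difference itself differed between them (a genotype by set interaction on 2 degrees of freedom). No member passed, beside 0.0144% of all genes, and 12 had an unadjusted p under 0.05, beside 12.7% of all genes; DESeq2 and the likelihood ratio test each called 1, Olfr888. The smallest p-values were those of Olfr901 (adjusted p = 0.225), Olfr894 (adjusted p = 0.231) and Olfr888 (adjusted p = 0.233). Without regard to size, 5 members had a log2 fold change above 0 in all 3 sets (5.75%), among them Olfr867 and Olfr913, and 13 had one below 0 in all 3 (14.9%), among them Olfr846, Olfr888, Olfr910, Olfr930 and Olfr955. Of the other 865 ORs, 15.5% were above 0 and 10.8% below 0 in all 3, and of all genes tested 13.6% and 11.3%. The receptors named here were picked by the smallest p over the same mice, which favours 1 direction in all sets.

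The 4 subfamilies with 7 or more tested members were described by their counts, beside 73.6% of all ORs above 0 at 8 weeks and 26.9% at 10 weeks. All 8 MOR224 receptors had a log2 fold change above 0 at 8 weeks (median 0.50) and below 0 at 10 weeks (median -0.69), and over all 24 mice 4 were above and 4 below. Of the 22 tested MOR171 receptors, 17 were above 0 at 8 weeks and 19 below 0 at 10 weeks. In MOR162, which holds both calls, 5 of 7 tested members were above 0 at 8 weeks and 7 of 7 below 0 at 10 weeks. In MOR165, which holds Olfr910 and Olfr913, 3 of 7 were above 0 at 8 weeks (median -0.08) and 6 of 7 below 0 at 10 weeks (median -0.59). No other member of these subfamilies passed the test in any set.

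The share of all OR counts that fell on the cluster described this movement library by library. In WT mice it was 5.07%, 5.48% and 5.51% at 8 weeks and 5.12%, 5.37% and 5.43% at 10 weeks. In iRhom2-/- mice it was 3.82%, 6.58% and 5.35% at 8 weeks, on both sides of the WT libraries, and 4.18%, 3.49% and 3.86% at 10 weeks, below every WT library. At 5 or 30 weeks it ran from 4.26% to 5.50% in WT and from 3.88% to 6.88% in iRhom2-/- mice. There 2 iRhom2-/- libraries were above every WT library and 3 were below every WT library, with ages not separated. The mean difference between genotypes was -1.47 percentage points at 10 weeks, from 5.31% ± 0.16 (SD, n = 3) to 3.84% ± 0.35 (SD, n = 3), and it was seen in the proximal group (1.01% to 0.680%) as in the distal group (4.30% to 3.16%). At 8 weeks it was -0.10 percentage points and at 5 or 30 weeks -0.10, both smaller than the SD of the iRhom2-/- group (1.38 and 1.21). Being a sum over chosen members, this share was given no test.

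Within sets, the share moved with a gene of the dorsal zone. Nqo1, a quinone reductase made by dorsal OSNs, held 214 ± 46.8 CPM (SD, n = 3) in WT and 133 ± 9.61 CPM in iRhom2-/- mice at 10 weeks. All 3 of these iRhom2-/- libraries were below every WT library of 10 weeks in both Nqo1 and cluster share. WT mice of 8 weeks held 121 CPM on average with a share of 5.35%. WT mice of 5 or 30 weeks held 136 CPM with a share of 5.03%. Between sets age and core reference differ too, and the part of the dorsal zone in the share was not tested. The libraries with the highest cluster shares, iRhom2-/- replicate 2 of 8 weeks (6.58%) and 1 iRhom2-/- library of 5 or 30 weeks (6.88%), had 243 and 257 CPM of Nqo1. Over the 24 libraries, with the mean of each set removed, the Pearson r between the log2 share and log2 CPM of Nqo1 was 0.80 (Spearman's rho 0.77), and 0.73 without the 2 libraries farthest from the median. It was 0.88 in the 12 iRhom2-/- libraries, and 0.69 without the 2 farthest of them. In the 12 WT libraries it was 0.51 and fell to 0.25 without the 2 farthest, so in WT mice the relation rests on those. Within sets it was 0.78 (8 weeks, n = 6), 0.86 (10 weeks, n = 6) and 0.79 (5 or 30 weeks, n = 12). For Acsm4, a second dorsal gene, r was 0.60, and 0.45 without the 2 farthest libraries. For Ncam2, of the ventral zone, r was -0.21, and -0.44 without the 2 farthest. Gap43, a marker of immature OSNs, also moved with the share. Its r was 0.44 over 24 libraries (0.26 without the 2 farthest) and 0.65 in iRhom2-/- mice, and its part was not tested. For Omp, a marker of mature OSNs, r was -0.05 over 24 libraries. The share of OR counts on class I receptors, the other OR class, moved with the cluster share as well. Its r was 0.79, and 0.71 without the 2 farthest libraries, and its part was not tested. Only set means were removed, so the genotype difference of each set stays in every r given here. The points share library, depth and dissection, and these are descriptions. The distal group followed Nqo1 more closely (r = 0.83) than the proximal group (r = 0.42).

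**Figure D4:**
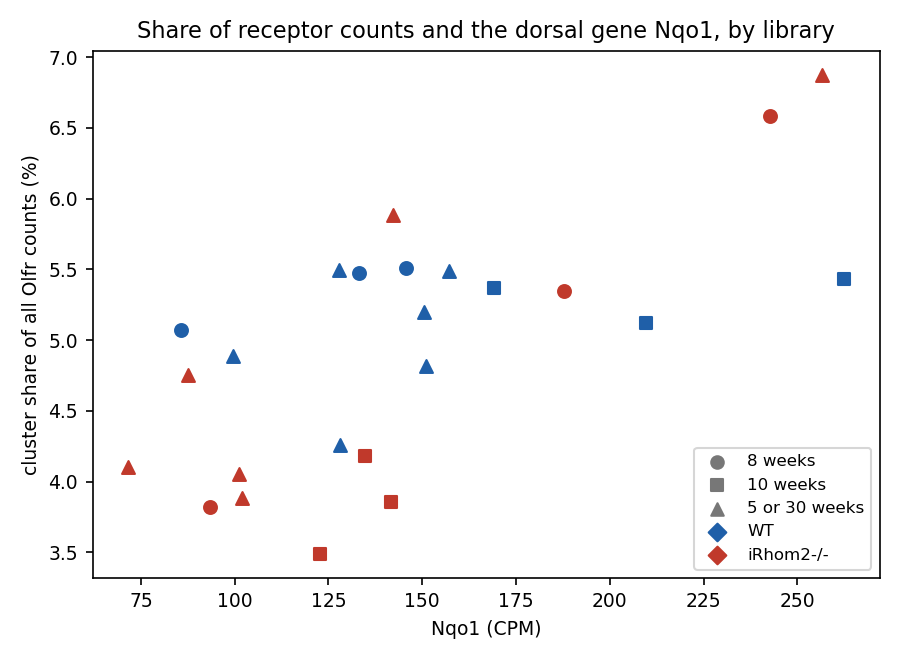
Cluster share of all Olfr counts (%) against Nqo1 (CPM) in each of the 24 libraries; colour gives the genotype and shape the set. The 3 iRhom2-/- libraries of 10 weeks (squares, 3.49% to 4.18%) lie below every WT library, and the highest shares, 6.58% and 6.88%, belong to iRhom2-/- libraries with 243 and 257 CPM of Nqo1.

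Single receptors showed the same pattern, again with set means alone removed, so that the genotype difference stays in each r. Of the 87 tested members 77 had an r with Nqo1 above 0, with a median of 0.38, and 33 had one above 0.5. Among the other 865 ORs 71.2% were above 0, with a median of 0.23, and 5.90% were below -0.5, where the cluster had 0. Olfr969 was among the highest (0.77), and Olfr874 at 0.76, Olfr957 at 0.75 and Olfr965 at 0.72 were close to it. The receptors with the smallest p for genotype lay on both sides of the cluster's median. The r was 0.16 for Olfr901 and -0.22 for Olfr888, the called receptors. It ranged from -0.23 for Olfr913 to 0.55 for Olfr895 among the others, with -0.20 for Olfr910, 0.36 for Olfr980 and 0.37 for Olfr894. Nqo1 itself did not pass the test in any set (adjusted p from 0.533 to 0.906). With Nqo1 as a covariate, an alternative chosen after seeing the data, Olfr901 passed at 8 weeks (adjusted p = 0.0417) and over all 24 mice (0.84, adjusted p = 0.0480), and Olfr888 no longer passed at 8 weeks (-5.85, adjusted p = 0.0767).

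**Figure D5:**
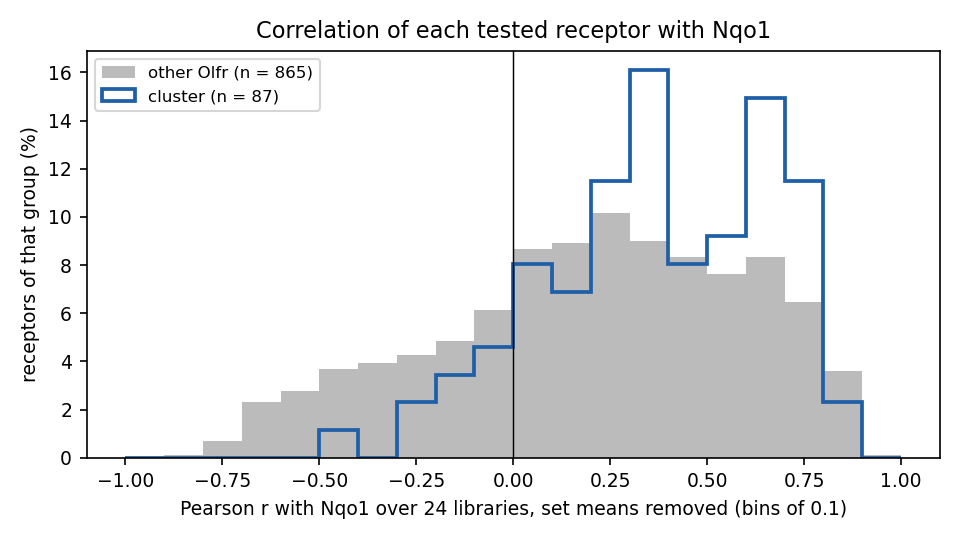
Distribution of Pearson r between each tested receptor and Nqo1 over the 24 libraries with set means removed, in bins of 0.1, as a percent of the 87 cluster receptors (blue outline) and of the 865 other receptors (grey). The cluster has a median of 0.38 against 0.23, and no member below -0.5. The genotype difference within sets was not removed.

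Members also varied with one another, with the genotype difference of each set left in. Over the 24 libraries with set means removed, the median r of adjacent tested members was 0.30 (85 pairs), that of members 10 places apart 0.16 and of members 20 places apart 0.23, while over all pairs of tested ORs it was 0.11. Between the proximal and the distal group the median was 0.20, and within them 0.23 and 0.24. The receptors most like the called ones, the 3 highest among all tested ORs, lay outside the cluster, as did 865 of the 952 tested ORs. For Olfr888 they were Olfr1024 (r = 0.90), Olfr1137 (0.72) and Olfr1392 (0.70), and for Olfr901 they were Olfr1501 (0.77), Olfr1388 (0.71) and Olfr429 (0.71), each over 24 libraries that include the contrast of 8 weeks.

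Genes that act with the receptors mostly did not pass the test. Of 13 genes of olfactory signal transduction, from Gnal and Adcy3 to Cnga2, Ano2 and Omp, 0 passed the test in any set or over all 24 mice. At 8 weeks 8 of the 13 had an unadjusted p under 0.05, beside 14.5% of all genes (7.87% higher). All of them were higher in the iRhom2-/- group (median of the list 0.45 on the log2 scale). At 10 weeks 0 had, beside 7.71% of all genes. Gnal, Adcy3, Cnga2, Cnga4, Cngb1, Ano2 and Omp were also among the mature OSN markers above, so the lists are not separate observations. The summed level of the 13 genes at 8 weeks did not overlap, at 10487 to 12965 CPM in WT and 15069 to 18930 CPM in iRhom2-/- libraries. Of all single genes tested, 25.7% did not overlap at that age. Of 14 genes of receptor choice and trafficking, such as the transcription factor Lhx2, its partner Ldb1 and the receptor transporting proteins Rtp1 and Rtp2, 1 passed over all 24 mice. This was Ebf3, a transcription factor of the Olf1/EBF family whose sites are common in OR promoters, which was higher by 0.25 ± 0.05 on the log2 scale (SE, adjusted p = 0.0140). None of the 14 passed in a single set; Rtp1 came closest, at 0.38 ± 0.10 (SE, adjusted p = 0.0729) at 8 weeks. Of the zone genes Nqo1, Acsm4 and Ncam2, 0 passed in any comparison.

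For markers of immune and blood cells no gene passed the test in any set. Macrophage markers summed to 119 to 261 CPM in WT and 79.8 to 144 CPM in iRhom2-/- libraries at 8 weeks, with all 6 genes on the lower side and 0 passing the test. Lymphocyte markers (5 of 5 below 0, 0 passing) summed to 8.83 to 26.6 CPM and 3.94 to 7.78 CPM there. At an unadjusted p under 0.05, 4 of 6 macrophage and 3 of 5 lymphocyte markers were lower at 8 weeks, beside 14.5% of all genes (6.68% lower). At 10 weeks the 3 erythrocyte genes were on the higher side in iRhom2-/- mice (352 to 3982 CPM against 437 to 1034 CPM in WT), again with 0 passing. At 5 or 30 weeks 5 of 5 lymphocyte markers again had a log2 fold change below 0 (9.11 to 15.1 CPM in WT and 2.99 to 9.88 CPM in iRhom2-/- libraries). Of these, 4 had an unadjusted p under 0.05, beside 13.1% of all genes, and 0 passed after adjustment. Over all 24 mice 2 of 6 macrophage and 5 of 5 lymphocyte markers were lower at an unadjusted p under 0.05. This stood beside 12.4% of all genes (6.13% lower), and 0 of these markers passed after adjustment. The sums overlapped between genotypes for macrophages at 8 weeks, erythrocytes at 10 weeks and lymphocytes at 5 or 30 weeks, and not for lymphocytes at 8 weeks. Over all 24 mice 1 of 8 immature OSN markers passed, Stmn4, a stathmin of growing neurites, which was higher by 0.48 ± 0.09 on the log2 scale (SE, adjusted p = 0.00863). None of the markers was at 0 in any library. Their part in the receptor values was not tested.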

How the data were processed

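Bulk RNAseq libraries (poly(A)-selected, strand-specific) of the OE were made from 24 mice. The authors ran nf-core, aligned reads with STAR to GRCm38 and obtained expected counts per gene with RSEM; the deposited counts are whole numbers, and how they were rounded or filtered is not given in the sources used here. The same table holds the authors' own log2 fold changes and p-values between genotypes, which were not used. Libraries were grouped by genotype and age from the labels; 12 columns whose names give only the genotype were the mice of 5 or 30 weeks by elimination, and 0 columns were left out.

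Counts were tested in R 4.3.3 with edgeR 4.0.16 (filterByExpr by group, TMM, quasi-likelihood test, Benjamini-Hochberg over the 20763 genes kept, threshold 0.05) in 1 fit of 6 groups with contrasts within sets, and in a fit of set plus genotype for all 24 mice. DESeq2 1.42.0 was an alternative. Standard errors are the log2 fold change divided by the root of F. CPM used TMM-scaled totals, log2 CPM a prior count of 2. The test was checked on simulated counts. Depth was 25333822 to 48660394 counts per library, so at most 3 counts (0.0622 to 0.112 CPM) lie behind a count of 0; intervals cover counting error only. Coordinates and exons are GENCODE M21 on GRCm38. No pair of libraries of 1 group agreed within sampling noise (42 pairs). Nothing states litters, so p-values measure the spread between these mice. In the set whose ages could not be separated no age term was fitted, so its spread includes any differences between ages. In the fit of 6 groups this spread also enters the dispersion estimated over all groups.

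Receptors named are those called in any comparison, the 5 with the smallest p in each direction over all mice and the 1 in each set, the 5 highest per kb and the ends of the physical groups. The members and lists were chosen with earlier results of these data known.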

Additional observations from a re-analysis of the deposited data

Results flagged for a closer look

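Of 48 checks on groups of 6 libraries, 6 found a library far from the other 5; chance alone marks about 1 in 20. Among WT libraries of 5 or 30 weeks, Olfr901 held 1.11 CPM in 1 library against at most 0.760 CPM in the others. Olfr846 held 0.485 CPM in another, against at most 0.204 CPM. Among iRhom2-/- libraries of 5 or 30 weeks, Olfr888 held 1.51 CPM in 1 library, against at most 0.524 CPM in the others, 1 of which held 0. Olfr980 reached 1.05 CPM against at most 0.504 CPM, and Olfr930 reached 0.386 CPM against at most 0.123 CPM, both in the library with the highest cluster share, 6.88% of OR counts. Olfr830 held 0.148 CPM, from 6 counts, in 1 iRhom2-/- library and 0 in the other 5.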

How the results depend on the processing

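None of the log2 fold changes of named receptors that were recomputed (the calls and those with the smallest p in each set and over all 24 mice) turned direction under the alternatives or with 1 library left out. The count at 8 weeks, 2, stayed at 2 with DESeq2, RLE scaling, OR counts as library size, no filter, adjustment over ORs alone, a threshold of 0.1 or the likelihood ratio test. It was 1 with at least 10 counts in every library (Olfr901, with Olfr888 then not tested), 1 with the set fitted alone (Olfr888) and 1 with Nqo1 as a covariate. It was 0 in male-labelled libraries alone. That fit had fewer samples and left out the female WT mouse of 8 weeks, where all iRhom2-/- mice were male. Fewer samples and sex cannot be told apart there. With 1 library left out the count was 0 to 1, and the cause was otherwise not tested. The count at 10 weeks, 0, became 1 with the likelihood ratio test (Olfr894) and 0 to 1 with 1 library left out. Over all 24 mice it was 1 with DESeq2, 1 with Nqo1 as a covariate and 0 to 1 with 1 library left out, each time Olfr901. The interaction count was 1 with DESeq2 and 1 with the likelihood ratio test, both Olfr888. The count at 5 or 30 weeks was 0 throughout.

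Replicate numbers of 8 and 10 weeks shared only a number: same-numbered mice of the genotypes had deviations from their group means that correlated by 0.00 to 0.22, and not every pair was over 0.1. With a replicate block, the count at 8 weeks was 1 (Olfr888; Olfr901 had an adjusted p of 0.0805), and it was 0 at 10 weeks and 0 for both ages together. No paired analysis was possible for 5 or 30 weeks because those columns carry no label numbers.

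The cluster's share of OR counts moved by under 1 SD without the -ps receptors; with 1 library left out its difference ran from -1.63 to -1.29 percentage points at 10 weeks, but from -0.77 to 0.61 at 8 weeks and from -0.49 to 0.11 at 5 or 30 weeks. Depth limits the low members: the 20 untested receptors had means of at most 0.138 CPM, and the lowest tested one, Olfr898, had 0.0982 CPM.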
